A study of Mus musculus with 14 samples.

Results

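Omega-oxidation starts at the far end of a fatty acid: cytochrome P450 enzymes of the CYP4 family hydroxylate the terminal carbon, and alcohol and aldehyde dehydrogenases then turn it into a second carboxyl group. The resulting dicarboxylic acids are shortened mainly in peroxisomes. In liver the route is minor when beta-oxidation keeps up and gains weight when fatty acids flood the cell, as in fasting or on a fatty diet, and several of its genes are classically driven by PPAR alpha, a nuclear receptor activated by fatty acids. The genes described here are 10 symbols chosen by name: the CYP4A hydroxylases Cyp4a10, Cyp4a12a, Cyp4a12b, Cyp4a14, Cyp4a31 and Cyp4a32, the CYP4F hydroxylases Cyp4f13 and Cyp4f14, the hydroxylase Cyp4v3, and Aldh3a2, the microsomal fatty aldehyde dehydrogenase. Of these, 9 had a named row among the 19505 genes measured, 1 row each; no row was named Cyp4v3 here, and it was not analysed.

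Liver RNA was profiled on Affymetrix arrays in 14 samples, 8 knockout and 6 control. All mice were males on a C57BL/6 background, labelled as 4 months old, homozygous for floxed alleles of both genes that encode the catalytic alpha subunits of the energy sensor AMPK (Prkaa1 and Prkaa2). All were fed a diet with 60% of its calories from fat from the age of 6 weeks, for 4 weeks before virus injection at 10 weeks, all had metformin at 50 mg/kg per day for 3 weeks after it, and all were fasted for 16 h before the liver was taken. The labelled age is higher than these times add up to, and the mismatch was not resolved. Knockout mice received AAV8-TBG-Cre and control mice the same AAV8-TBG virus without Cre. The TBG promoter directs Cre to hepatocytes, so the other cells of the liver keep both genes, and no samples without metformin were analysed here. The comparison asks how the omega-oxidation genes differ between livers with and without hepatocyte AMPK under metformin, the setting that the series title names.

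The values are on a log2 scale, and no gene is called more expressed than another, since probes differ in brightness. Terms for a gene's brightness, such as dim, refer only to where its values lie in the measured range. No label names a batch, but the arrays formed 2 sets, each with 4 knockout arrays (1 to 4 in set 1, 5 to 8 in set 2) and 3 control arrays (1 to 3 in set 1, 4 to 6 in set 2). Correlations between arrays over all rows were 0.988 to 0.994 within a set and 0.951 to 0.963 across sets. The arrays of both sets also went in pairs. Over 12240 genes with a mean of at least 5, each array's deviation from the mean of its own set and group correlated best, for all 7 arrays of set 1 and all 7 of set 2, with the array at the same place of its group in the other set (knockout 1 with knockout 5, control 1 with control 4, and so on). These correlations across genes were 0.116 to 0.338, against at most 0.146 for any other array of the other set. The labels describe separate samples and do not say whether 2 arrays share a mouse; if they do, the samples number 4 and 3 and p-values over 14 arrays are too small. Each result is therefore given over 14 arrays with the set as a term and, where the call differs, over the 7 means of the array pairs. The targeted gene Prkaa2 was lower in the knockout livers of each set, at 7.58 to 7.82 against 8.76 to 8.96 in control livers of set 1, and at 8.45 to 8.78 against 9.67 to 9.91 in set 2. Prkaa1 was at 5.78 to 6.25 in knockout and 6.35 to 6.63 in control livers of set 1, and at 6.03 to 6.86 against 7.18 to 7.50 in set 2. Hepatocyte markers were high on every array (the mean of 7 markers was 12.3 to 12.9 in knockout and 12.2 to 12.9 in control livers).

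The 9 measured genes had a median difference, knockout minus control, of 0.32 on the log2 scale, against 0.00 over all genes. The difference was positive for Aldh3a2 and all 6 Cyp4a genes and negative for both Cyp4f genes. Over all genes 50.6% of the differences were positive. Under limma with the set as a term, 1 of the 9 passed an adjusted p of 0.05, Aldh3a2, which was higher in the knockout livers; over all genes 0.702% passed, and 0.431% passed as higher. Over the 7 pair means 0 of the 9 passed in limma (6 had an unadjusted p under 0.05, as did 1613 of all 19505 genes), and over all genes 0.00513% did, which is the single gene Prkaa2. Without the set term limma called 0 of the 9 (3 at an unadjusted p under 0.05, as were 655 of all 19505 genes) and 0 of all genes.

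**Figure D1:**
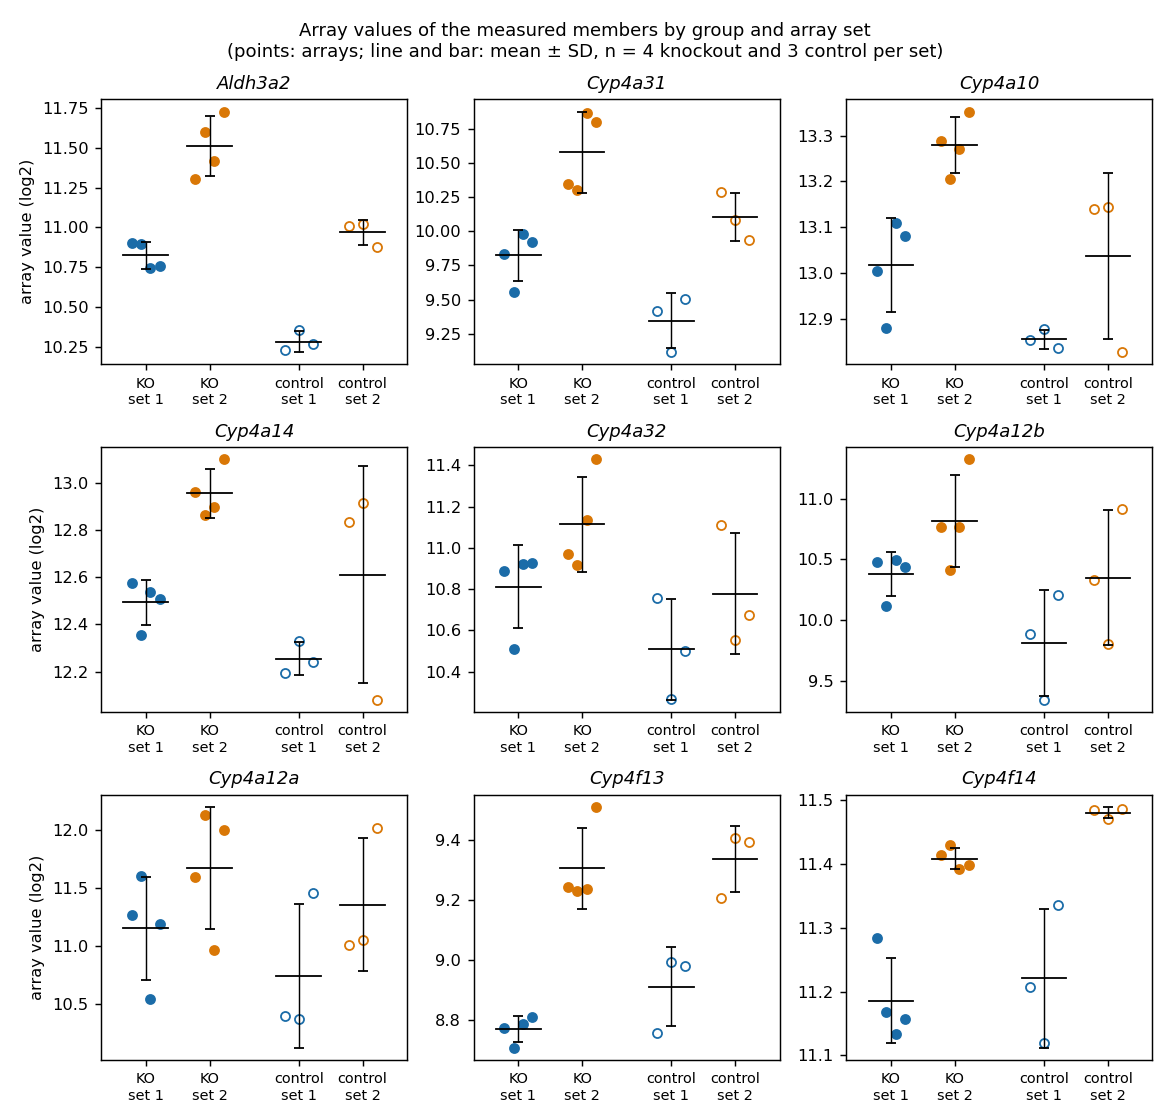
Array values on the log2 scale (vertical axes, which do not start at 0 and differ between panels) of the 9 measured genes, with knockout (KO, filled) left of control (open) and set 1 in blue, set 2 in orange; points are arrays, lines and bars the mean ± SD. In each set all knockout points of Aldh3a2, Cyp4a31 and Cyp4a10 lie above every control point, as in 0.774% of all genes. Those of Cyp4a12a, Cyp4a12b, Cyp4a32, Cyp4f13 and Cyp4f14 overlap the control points in set 1, and those of Cyp4a14 only in set 2.

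Aldh3a2 encodes the enzyme that oxidises long-chain fatty aldehydes to fatty acids at the endoplasmic reticulum, the last oxidation step of the route; loss of the human gene causes Sjögren-Larsson syndrome. In set 1 it was at 10.90, 10.90, 10.75 and 10.76 in knockout 1 to 4 and at 10.23, 10.35 and 10.27 in control 1 to 3. In set 2 it was at 11.31, 11.60, 11.42 and 11.73 in knockout 5 to 8 and at 11.01, 11.02 and 10.88 in control 4 to 6. All 8 knockout arrays were above every control array of their own set, a separation that 0.774% of all genes showed. The difference was 0.54 ± 0.07 (SE; 95% interval 0.38 to 0.70; 1.46-fold), with an adjusted p = 0.00493 in limma. It was the same size within each set, 0.54 ± 0.09 in set 1 and 0.54 ± 0.13 in set 2. Exact two-sided permutation within the sets gave p = 0.000816, the smallest that 1225 splits can give. Over pair means the SE was 0.08 (95% interval 0.36 to 0.73) and all 4 knockout pairs were above all 3 control pairs, but limma's adjusted p over all genes was 0.127; exact two-sided permutation gave p = 0.0286, the smallest that 35 splits can give. The call over 14 arrays held without any single array, at adjusted p of 0.00506 to 0.0191.

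The promoters of 3 members are shown because they stand for genes with differences of opposite sign, of which only that of Aldh3a2 passed the test: Aldh3a2, Cyp4a32 as a Cyp4a gene with a positive difference, and Cyp4f13 as a Cyp4f gene with a negative one. They run from 250 bases before to 50 bases after the start, 5′ to 3′ on the gene's strand, from RefSeq on GRCm38.p6; 5 of the 10 symbols had an entry. Aldh3a2 is at chr11:61267137-61267436, minus strand, Cyp4a32 at chr4:115600688-115600987, plus strand, and Cyp4f13 at chr17:32947312-32947611, minus strand. Capitals mark matches on either strand to 3 motifs: TATAAA, in 13.6% of all 32851 promoter entries, CCAAT, in 37.4%, and GGGCGG, in 35.7%.
Aldh3a2: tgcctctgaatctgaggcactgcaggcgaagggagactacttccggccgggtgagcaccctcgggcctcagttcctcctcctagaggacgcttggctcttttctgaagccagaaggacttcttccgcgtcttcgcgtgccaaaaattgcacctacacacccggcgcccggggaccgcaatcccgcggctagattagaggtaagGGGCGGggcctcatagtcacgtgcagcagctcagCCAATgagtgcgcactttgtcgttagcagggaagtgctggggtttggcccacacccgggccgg
Cyp4a32: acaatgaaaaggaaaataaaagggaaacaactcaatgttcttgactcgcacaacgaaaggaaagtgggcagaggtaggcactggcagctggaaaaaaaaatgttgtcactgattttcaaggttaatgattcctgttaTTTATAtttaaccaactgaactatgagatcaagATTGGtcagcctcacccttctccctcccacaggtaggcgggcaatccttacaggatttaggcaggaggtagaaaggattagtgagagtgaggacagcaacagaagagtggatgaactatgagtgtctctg
Cyp4f13: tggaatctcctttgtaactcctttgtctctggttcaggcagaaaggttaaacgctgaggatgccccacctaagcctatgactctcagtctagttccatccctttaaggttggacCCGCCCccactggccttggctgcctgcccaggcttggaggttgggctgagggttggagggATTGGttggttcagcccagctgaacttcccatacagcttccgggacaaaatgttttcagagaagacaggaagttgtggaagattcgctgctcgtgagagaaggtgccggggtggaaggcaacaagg
The Aldh3a2 window had 61.7% G and C bases and 21 CpG pairs, with 1 match each to GGGCGG and CCAAT. The Cyp4a32 window had 42.7% and 3 CpG pairs, with 1 match each to TATAAA and CCAAT, and the Cyp4f13 window 54.0% and 6 CpG pairs, with 1 match each to GGGCGG and CCAAT. The median over all entries was 52.7% and 7 CpG pairs. None of the windows held the half-site AGGTCA that PPAR alpha and other nuclear receptors bind (in 16.3% of all entries), nor therefore its direct repeat spaced by 1 base (in 0.0396%). These letters can lie outside the windows, which say nothing of binding.

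The Cyp4a genes lie side by side on chromosome 4 in the order Cyp4a12a, Cyp4a12b, Cyp4a14, Cyp4a10, Cyp4a31 and Cyp4a32, with Cyp4a30b between Cyp4a12b and Cyp4a14. Several are close copies of each other, in particular Cyp4a10 with Cyp4a31 and Cyp4a32 and Cyp4a12a with Cyp4a12b. How far their probes share signal was not tested, so single Cyp4a values are uncertain as to the gene.

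Cyp4a10 and Cyp4a14 encode the fatty acid hydroxylases best known as PPAR alpha targets of mouse liver. Cyp4a10 was at 13.00, 12.88, 13.11 and 13.08 in knockout 1 to 4 against 12.85, 12.88 and 12.84 in control 1 to 3, and at 13.29, 13.20, 13.27 and 13.35 in knockout 5 to 8 against 13.14, 13.14 and 12.83 in control 4 to 6. All 8 knockout arrays were above every control array of their set, as in 0.774% of all genes, but knockout 2 by very little. The difference of 0.20 ± 0.07 (SE; 95% interval 0.05 to 0.35; 1.15-fold) did not pass in limma (adjusted p = 0.272).

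Cyp4a14 was at 12.58, 12.36, 12.54 and 12.51 in knockout 1 to 4 against 12.19, 12.33 and 12.24 in control 1 to 3. In set 2 it was at 12.96, 12.86, 12.90 and 13.10 in knockout 5 to 8 against 12.84, 12.91 and 12.08 in control 4 to 6. The groups did not overlap in set 1, where knockout 2 was above control 2 by very little (12.36 against 12.33). How many of all genes show this in 1 set was not counted. The groups overlapped in set 2, where control 6 lay far below the other controls. The difference was 0.29 ± 0.11 (SE; 95% interval 0.06 to 0.52; 1.22-fold; limma adjusted p = 0.327). Without a single array it lay between 0.17 and 0.35, the lowest value being that without control 6.

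Cyp4a31 had the smallest p among the Cyp4a genes. It was at 9.83, 9.56, 9.98 and 9.92 in knockout 1 to 4 against 9.42, 9.12 and 9.51 in control 1 to 3, and at 10.34, 10.30, 10.87 and 10.80 in knockout 5 to 8 against 10.29, 10.08 and 9.94 in control 4 to 6. All 8 knockout arrays were above every control of their set, as in 0.774% of all genes, but knockout 6 by very little. The difference was 0.48 ± 0.11 (SE; 95% interval 0.24 to 0.71; 1.39-fold), 0.48 in each set, with a limma adjusted p = 0.0657 that missed the threshold. It passed when dim genes were left out (adjusted p = 0.0371) or when the spread was fitted with a trend and robustly (adjusted p = 0.0188), and over pair means it was at adjusted p = 0.341. Cyp4a32 differed by 0.32 ± 0.12 (SE; 95% interval 0.08 to 0.56; adjusted p = 0.293 in limma). Its knockout arrays spanned 10.51 to 11.43 and its control arrays 10.27 to 11.11, with 5 of 8 knockout arrays above every control of their set. The share of all genes that reach this number of arrays was not computed, so it is a description only.

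Cyp4a12a and Cyp4a12b encode male-biased hydroxylases, known in mouse kidney as androgen-driven omega-hydroxylases of arachidonic acid. Their pair means had the widest ranges of all members, 1.17 for Cyp4a12a and 1.30 for Cyp4a12b, against 0.15 to 0.83 for the others. Cyp4a12a was at 11.27, 11.61, 10.54 and 11.19 in knockout 1 to 4 against 10.39, 10.37 and 11.46 in control 1 to 3, and at 11.59, 12.13, 10.96 and 12.00 in knockout 5 to 8 against 11.01, 11.05 and 12.02 in control 4 to 6. The groups overlapped in both sets, and the difference of 0.36 ± 0.23 (SE; 95% interval -0.13 to 0.86; adjusted p = 0.649 in limma) was within that spread. The extreme arrays were partners: control 3 and control 6 were the highest controls, knockout 2 and knockout 6 the highest knockouts, and knockout 3 and knockout 7 the lowest knockouts of their sets. Within a pair the set 2 array exceeded the set 1 array by 0.32 to 0.81, while pair means ran from 10.75 to 11.87 in knockout and from 10.70 to 11.74 in control livers.

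Cyp4a12b spanned 10.11 to 11.32 in knockout and 9.35 to 10.91 in control livers, and differed by 0.52 ± 0.18 (SE; 95% interval 0.14 to 0.89; adjusted p = 0.257 in limma). Here 4 of 8 knockout arrays were above every control of their set, a description only, since the share of all genes that reach this was not computed. Control 2 and control 5, a pair, were the lowest controls of their sets, at 9.35 and 9.81. Leaving out 1 array moved its difference between 0.40 and 0.65.

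Exact two-sided permutation within the sets, run on each of the 9 members by itself and not adjusted for that number, gave p = 0.00163 for Cyp4a10, 0.00327 for Cyp4a14 and for Cyp4a31, 0.0286 for Cyp4a12b, 0.0302 for Cyp4a32 and 0.218 for Cyp4a12a. Over the 7 pair means the same exact test gave 0.0571 for Cyp4a10, Cyp4a14 and Cyp4a31, 0.143 for Cyp4a12b, 0.171 for Cyp4a32 and 0.343 for Cyp4a12a. For Cyp4f13 and Cyp4f14 exact two-sided permutation gave p = 0.156 and 0.127 within the sets and 0.257 and 0.229 over pair means. The 6 Cyp4a genes thus shared a sign, and none passed over all genes.

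**Figure D2:**
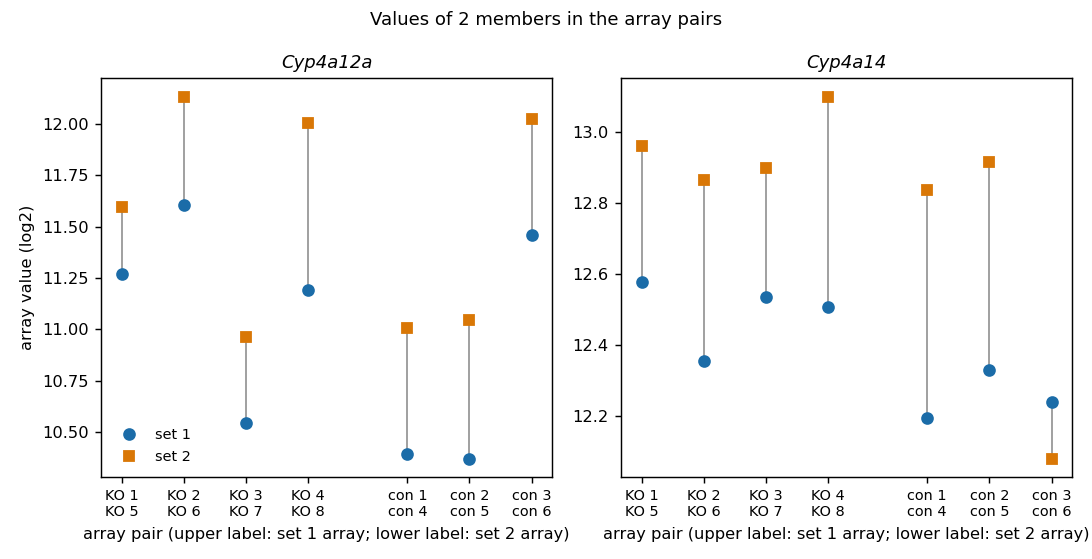
Values of Cyp4a12a and Cyp4a14 on the log2 scale in the 7 array pairs, knockout (KO) left of control (con), with the set 1 array as a circle and the set 2 array as a square joined by a line. For Cyp4a12a the set 2 array is the higher one in every pair, with a gap of 0.32 to 0.81, while for Cyp4a14 the gap ranges from -0.16 in the pair of control 3 and 6 to 0.64 in that of control 1 and 4.

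The CYP4F enzymes hydroxylate leukotrienes and other bioactive lipids, and Cyp4f14 also the side chain of vitamin E. Cyp4f13 was at 8.78, 8.71, 8.79 and 8.81 in knockout 1 to 4 against 8.76, 8.99 and 8.98 in control 1 to 3, and at 9.24, 9.23, 9.24 and 9.51 in knockout 5 to 8 against 9.21, 9.40 and 9.39 in control 4 to 6. The groups overlapped in both sets, and the difference was -0.09 ± 0.07 (SE; 95% interval -0.24 to 0.07; adjusted p = 0.757 in limma). Control 1 and control 4, again a pair, were the lowest controls of Cyp4f13, and without either one the difference was larger in size, down to -0.12.

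Cyp4f14 spanned 11.13 to 11.28 in knockout and 11.12 to 11.34 in control livers of set 1. In set 2 it was at 11.39 to 11.43 in knockout and 11.47 to 11.49 in control livers, so that all 4 knockout arrays lay narrowly below the controls there. How many of all genes separate the groups in 1 set was not counted, so this is a description only. The difference was -0.05 ± 0.06 (SE; 95% interval -0.18 to 0.07; adjusted p = 0.834 in limma). No member had a difference that itself differed between the sets in limma's interaction test (adjusted p of 0.998 or more for each).

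**Figure D3:**
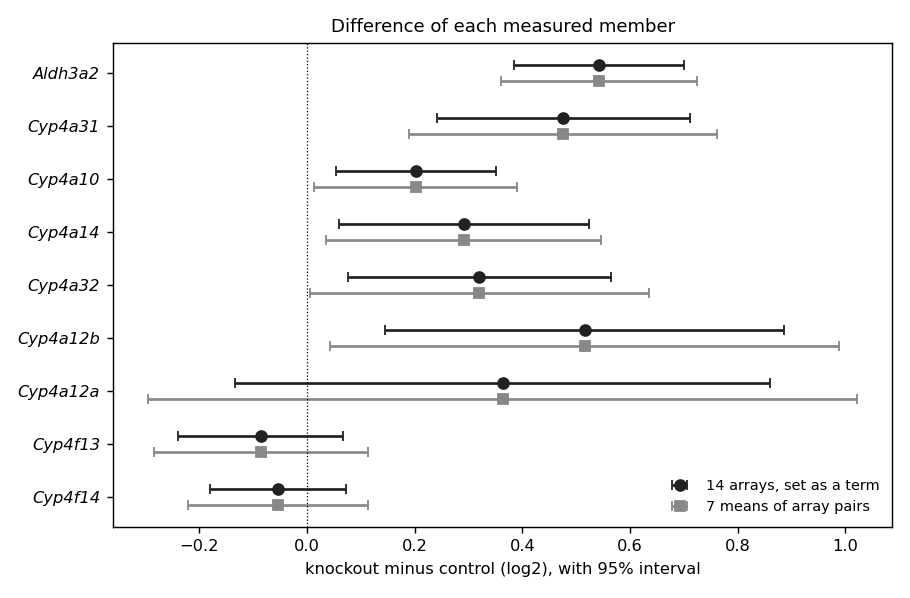
Difference, knockout minus control on the log2 scale, of the 9 measured genes with 95% intervals from limma, over 14 arrays with the set as a term (black circles) and over the 7 means of array pairs (grey squares). The interval of Aldh3a2 is 0.38 to 0.70 over arrays and 0.36 to 0.73 over pairs; the intervals of Cyp4a12a, Cyp4f13 and Cyp4f14 include 0 in both, and no interval is adjusted for the number of genes.

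The members did not all vary together from array to array. Measured as deviations from the mean of the own set and group over the 14 arrays, Cyp4a10 and Cyp4a14 went together (Pearson r = 0.90), Cyp4a12a went with Cyp4a12b less closely (r = 0.40) and against Cyp4a10 (r = -0.63), and Aldh3a2 had r between -0.13 and 0.41 with each of the other 8. These are descriptions of 14 arrays that go in pairs. Of genes outside the list, those most like Cyp4a14 were Retsat (r = 0.92), Eif1ax (0.91), Vsig8 (0.91), the PPAR alpha target Acot1 (0.91) and Emg1 (0.89). Those most like Cyp4a10 were Agps, an enzyme of ether lipid synthesis (0.91), Taf1a (0.90), Sbf1 (0.89), Cda (0.87) and the monocarboxylate transporter Slc16a1 (0.86). Control 6 was the lowest array for several of these, and deviated by -0.53 for Cyp4a14, -0.45 for Retsat, -0.59 for Acot1 and -0.54 for Agps. Those most like Cyp4a12a were Adap2 (0.94), Nrn1 (0.90), Car3 (0.89), Adamts7 (0.89) and Rbm47 (0.88), and those most like Aldh3a2 were Ywhae (0.91), Fmc1 (0.89), Aldh6a1 (0.89), Kncn (0.87) and Slc35e2 (0.87). Apart from Acot1, none of these genes passed for the knockout difference in limma.

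Other genes of the hydroxylase and dehydrogenase steps did not share one direction. Of 11 other Cyp4 genes 4 were positive and 7 negative, with a median difference of -0.01 and 0 past the threshold in limma (1 at an unadjusted p under 0.05, as were 2021 of all 19505 genes). That gene was Cyp4f18, a leukotriene hydroxylase of white blood cells, at -0.28 ± 0.10 (SE; adjusted p = 0.284 in limma). Several of the other Cyp4 genes were dim, with means under 5 in both groups: Cyp4f40 (3.32 in each), Cyp4a29 (3.79 in each), Cyp4f39, Cyp4f16, Cyp4a30b and Cyp4x1. As background is not known here, the signs of these dim genes say little. Among 4 measured electron donors of microsomal P450, the cytochrome b5 genes and their reductases, the median was -0.03 and 0 passed in limma (0 at an unadjusted p under 0.05). Among 10 alcohol and aldehyde dehydrogenases, which include Adh1 (-0.13 ± 0.06) and Aldh9a1 (0.16 ± 0.06, both SE), 5 were positive, the median was -0.00 and 0 passed in limma (2 at an unadjusted p under 0.05). Aldh3a1, the neighbour of Aldh3a2 on chromosome 11, is in that list and did not pass. It was dim too, at a mean of 4.48 in knockout and 4.43 in control livers.

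Genes that activate dicarboxylic acids, import them into peroxisomes or shorten them there had positive differences, knockout minus control, in all 12 measured genes, with a median of 0.29, and 3 rose in limma with the set term, against 0.431% of all genes. These were Ehhadh, the bifunctional enzyme of peroxisomal beta-oxidation, by 0.75 ± 0.11, the peroxisomal thioesterase Acot8 by 0.38 ± 0.07 and Hsd17b4, a second bifunctional enzyme, by 0.31 ± 0.07 (SE). Abcd3, which carries long-chain dicarboxylic acids into peroxisomes, was at 0.26 ± 0.07 (SE; adjusted p = 0.117 in limma), and Acot4, which splits succinyl-CoA and other dicarboxylyl-CoA esters, at 0.45 ± 0.12 (SE; adjusted p = 0.118 in limma). Over pair means 0 of the 12 passed in limma, with an adjusted p = 0.127 for Ehhadh. The list and the one that follows were drawn up with earlier results of these data known, and neither their direction nor their size is independent evidence.

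Of 13 further known PPAR alpha targets all were positive, with a median of 0.36, and 8 rose in limma with the set term, against 0.431% of all genes. They include Pex11a, a peroxisome division gene, by 0.56 ± 0.08, Angptl4, an inhibitor of lipoprotein lipase, by 0.55 ± 0.08, the lipid droplet coat gene Plin2 by 0.41 ± 0.07 and Cpt1a, which starts the import of fatty acids into mitochondria, by 0.36 ± 0.07 (SE). Pdk4, a kinase that shuts pyruvate out of oxidation and a common PPAR alpha target, was at 0.04 ± 0.13 (SE). Over pair means 0 of the 13 passed in limma. Beside these values, Cyp4a10 and Cyp4a14, the members most often used as readouts of the receptor, differed by 0.20 and 0.29, below the median of that list. The interval of Cyp4a14, 0.06 to 0.52, includes that median, and the interval of Cyp4a10, 0.05 to 0.35, ends just below it. Whether Cyp4a10 and Cyp4a14 differ less than the listed genes was not tested, and a list drawn up with earlier results known gives no independent yardstick. Both lie near the top of the measured values, which end at 13.8, and whether differences are compressed there was not tested either. Ppara itself was at 11.25 to 11.35 in knockout and 10.92 to 11.35 in control livers, a difference of 0.21 ± 0.07 (SE; adjusted p = 0.217 in limma). Ppara and 8 other measured genes, a list of its partners that also holds the related receptor gene Pparg, had a median of -0.00. In limma 0 were past the threshold (1 at an unadjusted p under 0.05).

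**Figure D4:**
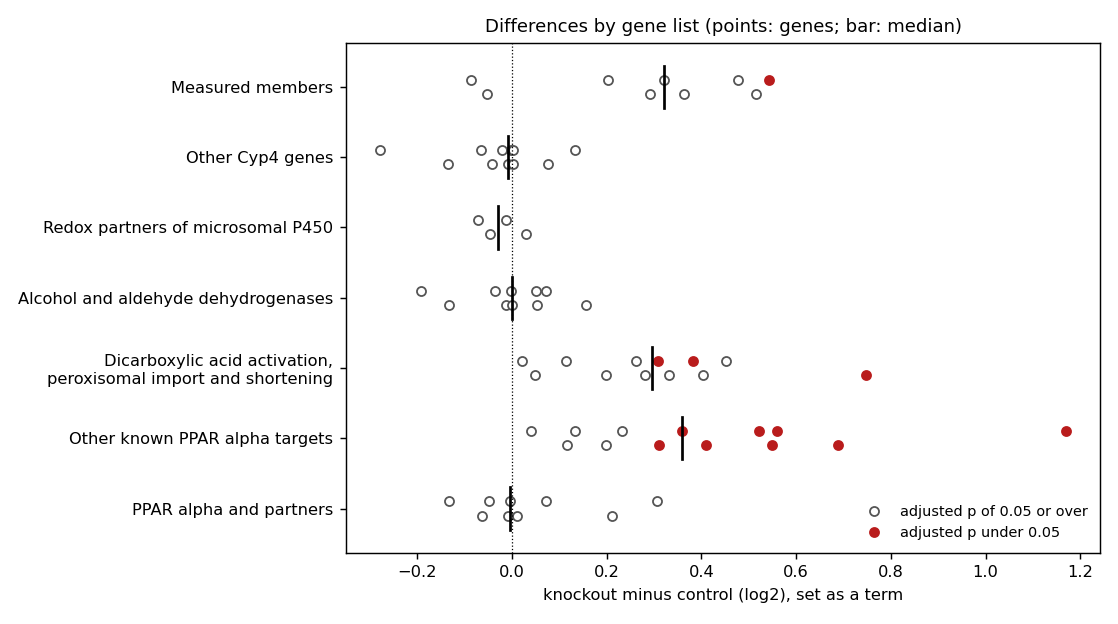
Difference, knockout minus control on the log2 scale with the set as a term, of each gene in the measured members and in 6 lists around them; filled points passed limma's adjusted p of 0.05, open points did not, and bars are medians. The medians of the members (0.32), the dicarboxylic acid list (0.29) and the other PPAR alpha targets (0.36) lie to the right of 0, those of the other lists at or near it.

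Since Cyp4a12a and Cyp4a12b are male-biased, other sex-biased liver genes were read beside them. Of 10 male-biased genes 9 were positive, with a median of 0.11, and of 9 measured female-biased genes 7 were negative, with a median of -0.10. None passed in limma (3 and 5 at an unadjusted p under 0.05). The female-biased Cyp2b9 was at -1.14 ± 0.31 and Cyp3a41a at 0.43 ± 0.12 (SE), so the female-biased genes differed in direction among themselves. The means of the male-biased list relative to the set mean ran from -0.31 to 0.20 in knockout and from -0.23 to 0.25 in control livers.

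Markers of other liver cells and of the lobule's zones were read beside the members, since in whole tissue fewer cells of a type and less RNA per cell cannot be told apart. Endothelial markers (8) averaged -0.41 to 0.38 in knockout and -0.83 to 0.51 in control livers relative to the set mean, with a median difference of 0.02, and stellate cell markers (8) -0.22 to 0.19 and -0.30 to 0.29, with a median of -0.10. Pericentral hepatocyte markers (6 measured) had a median difference of -0.01, with Slc1a2, a glutamate transporter, at -0.37 ± 0.08 (SE; adjusted p = 0.0454 in limma, and 0.260 over pair means), and periportal ones (4 measured) of 0.06. Control 1 and control 4 were the lowest arrays for endothelium. Without both of them the call of Aldh3a2 held (0.54, adjusted p = 0.0347 in limma). The difference of Cyp4a12a was then 0.19, against 0.36 with all arrays, that of Cyp4f13 -0.16 against -0.09, and that of Cyp4a32 0.47 against 0.32; none of the 3 passed in limma either way (adjusted p of 0.853, 0.486 and 0.122 without the 2 arrays).

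Kupffer cell markers (7) had a median difference of 0.05, with means of -0.47 to 0.38 in knockout and -0.55 to 0.33 in control livers relative to the set mean. Bile duct markers (4 measured) had a median of -0.04, and were high on 1 array of each group in set 1, 0.75 above the set mean in knockout 1 and 0.78 above it in control 3. Lymphocyte markers (4) had the highest median of the marker lists, 0.19, and the means of all 4 knockout arrays of set 2 (0.02 to 0.33 relative to the set mean) were above those of its 3 controls (-0.21 to -0.14), while the groups overlapped in set 1. None of the 4 passed in limma (1 at an unadjusted p under 0.05, the B cell gene Cd79a at 0.33 ± 0.12, SE; adjusted p = 0.323). The 1 red cell marker measured, Alas2, was at -0.17 ± 0.09 (SE; adjusted p = 0.565 in limma), with all knockout arrays of set 2 below its controls and overlap in set 1. The part of these markers in the members' differences was not tested, and how many of all genes separate the groups in 1 set was not counted.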

How the data were processed

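Total RNA of 14 liver samples was labelled with the Affymetrix WT PLUS kit and hybridised to arrays, per the labels' protocols. The deposited log2 values were made with RMA and Partek, per the submitters' processing notes, which give no version; the log2 scale was read from the range of the values, 2.13 to 13.8. They were used as deposited. The number of arrays limits the precision, and no background level was given. Of 22206 rows, 19572 had 1 gene symbol, updated by gene identifier; 2634 were not named here. For 55 genes with over 1 row the brightest was kept, leaving 19505 genes, with no filter on level.

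The arrays were split into 2 sets by average-linkage clustering of their correlations. Knockout minus control was fitted in limma 3.58.1 under R 4.3.3, by lmFit and eBayes, with the set as a term. Benjamini-Hochberg adjustment was over all genes, with a threshold of 0.05. The fit was tested on simulated data with independent noise on each array, which cannot show how the array pairs affect the p-values. Members were also tested by exact permutation within the sets. Means of array pairs, and the pair as a random block, were added after seeing the data. The members, the lists, the set term and the other alternatives were chosen with earlier results of these data known. Named were all members, the targeted genes, up to 4 genes per list with the smallest p, and the 5 genes most like each of 5 members. Abcd3, Acot4 and Pdk4 were named after their values were seen. Also outside that rule, Cyp4f39, Cyp4f40 and Cyp4a29 were named as dim genes and Aldh3a1 as the neighbour of Aldh3a2. In the sample descriptions knockout 7 and 8 carry the numbers of 5 and 6 again; as 0 array pairs were identical, all 14 arrays were kept. Some genes of the lists had no named row and are not reported here.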

Additional observations from a re-analysis of the deposited data

Results flagged for a closer look

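The 9 members were searched for 1 array far from the rest in 54 groupings of arrays that partly overlap (each group as measured and relative to its set mean, and the knockouts of each set); 7 held such an array, and chance gives about 1 in 20. Relative to its set mean, control 6 stood below the other 5 controls for Cyp4a10 (-0.35) and Cyp4a14 (-0.73). Within set 1, knockout 2 stood below the other 3 knockouts for Cyp4a12b (10.11) and Cyp4a32 (10.51). Knockout 8 stood above the other knockouts for Cyp4f13, at 9.51 within set 2 and at 0.19 relative to the set mean over both sets. Knockout 1 stood above the other 7 knockouts for Cyp4f14, at 0.083 relative to its set mean.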

How the results depend on the processing

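Over the alternatives no member's difference changed its sign. The 137 genes called became 0 without the set term (655 at an unadjusted p under 0.05), 2 in set 1 alone, 2 in set 2 alone, 26 without control 1 and control 4, 12 without knockout 7 and knockout 8, 67 with knockout 5 averaged with 7 and 6 with 8, 222 with dim genes left out, 325 with trend and robust, 1 over means of array pairs, 75 with the pair as a random block and 242 at an adjusted p under 0.1. Leaving out 1 array each gave 44 (without control 4) to 132 (without control 3) genes, and 1 to 1 members. The 1 member called, Aldh3a2, became 0 without the set term, in set 1 alone, in set 2 alone and over pair means. In these fits 3, 4, 2 and 6 members had an unadjusted p under 0.05 in limma, as did 655, 1683, 1284 and 1613 of all 19505 genes. Fewer arrays enter the fits by set and by pair. The number of members called became 2 with dim genes left out or at an adjusted p under 0.1 (with Cyp4a31). It became 3 with trend and robust (with Cyp4a31 and Cyp4a10). With the replicate number as a replicate block 2 genes and 0 members were called (Aldh3a2 0.54 ± 0.09, adjusted p = 0.190 in limma). There 4 members had an unadjusted p under 0.05, as did 1685 of all 19505 genes. That fit uses the 12 arrays whose number both groups hold. The deviations of same-numbered arrays correlated at 0.0286 to 0.160, over 0.1 for 3 of 6 numbers, so the numbers were not taken to pair the samples. For Aldh3a2 adjusted p was 0.192 in set 1 and 0.529 in set 2 alone and 0.00767 with the pair as a random block. Background signal is not known here, which limits what dim rows show.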

Other observations

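The genes most like Cyp4f14 across arrays were of another kind than the rest: Ly6d (r = 0.94), Spink4 (0.93), S100a14 (0.93), the mucin gene Muc1 (0.93) and the myosin gene Myh11 (0.93), the first 4 known from epithelia and Myh11 from smooth muscle. In set 1, 1 array of each group held them high. Muc1 deviated from the mean of its own set and group by 2.53 in knockout 1 and by 2.24 in control 3, and by -1.19 to -0.34 in the other knockouts and -1.35 to -0.89 in the other controls of that set. Myh11 deviated by 0.94 in knockout 1 and 1.09 in control 3. In set 2 the deviations of the 5 genes in their partner arrays were smaller, from -0.26 (Muc1) to 0.34 (Spink4) in knockout 5 and from -0.16 (Spink4) to 0.16 (S100a14) in control 6. Knockout 5 was still the highest knockout of set 2 for Ly6d, Spink4 and Myh11, and control 6 the highest control for S100a14 and Myh11. Cyp4f14 itself deviated by 0.10 in knockout 1 and 0.11 in control 3, in each case the highest value of its group in set 1. The mean of the 4 measured bile duct markers was high on the same arrays, at 6.95 in knockout 1 and 6.99 in control 3, against 5.93 to 5.94 in the other knockouts and 5.79 to 5.88 in the other controls of set 1; its part in these deviations was not tested.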
